A study of Rattus norvegicus with 6 samples.

Results

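Organophosphate target esterases and paraoxonases were followed in the renal cortex of rats given tricresyl phosphate, a triaryl organophosphate found in plastics, hydraulic fluids and lubricants. The set names 10 genes: the neuropathy target esterase gene Pnpla6 and its relative Pnpla7, the cholinesterase genes Ache and Bche, the carboxylesterase genes Ces1d, Ces1f and Ces2c, the arylacetamide deacetylase gene Aadac, and the paraoxonase genes Pon2 and Pon3. Members were the non-control probes whose accession maps to these genes in RefSeq. They were 14 of 61537 probes and covered 9 of the 10 genes. No probe was matched to Pnpla6, which was therefore not analysed here. Bche had 1 probe, and on none of the 6 arrays was it well above background, with processed signals of 9.18, 6.69 and 7.75 with tricresyl phosphate and 6.49, 13.1 and 9.81 with corn oil. The other 8 genes were well above background on all 6 arrays and were among 31637 genes or transcripts tested.

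The tricresyl phosphate group was 3 male Sprague-Dawley (Crl:CD(SD)) rats given 200 mg/kg/day for 4 weeks, and the corn oil group was 3 male rats of the same strain given the vehicle for 4 weeks. All were 5 weeks old when purchased and each animal was hybridised to 1 single-colour Agilent array. Each array had from 41503 to 43823 probes well above background. The lowest correlation of any pair of arrays over all genes was 0.988 within groups and 0.987 between them. Corn oil replicate 1 lay alone on slide 1, so values within the other 5 arrays are given beside the results. Its scan entry in the file header also differed from the entry shared by those 5, so slide and scan cannot be told apart. Markers of the proximal tubule, the main segment of the cortex, were measured in 14 of 14 genes, 3 of them higher and 11 lower with tricresyl phosphate. Over all genes 59.2% were lower, and 76.0% were lower in the brightest of 5 equal classes by level, whose range holds the mean level of these markers. The labels do not name the isomer of tricresyl phosphate.

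Serine esterases share a catalytic serine in their active site, and organophosphates inhibit them by phosphorylating it. Acetylcholinesterase inhibition underlies acute organophosphate poisoning, and ageing of inhibited neuropathy target esterase is linked to the delayed neuropathy that tri-ortho-cresyl phosphate causes. Carboxylesterases bind organophosphates and so act as scavengers, while paraoxonases are calcium-dependent lactonases named after the hydrolysis of paraoxon by Pon1. The arrays measured RNA, and enzyme activity was not measured. In these bulk samples fewer cells of a type and less RNA per cell cannot be told apart.

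The sequences shown first are upstream regions of the genes on which the results turn: Ces1d, which had a large difference between groups that rested on 2 of the 3 treated animals, its close relative Ces1dl1, whose RNA ordered the 6 animals in the same way, and Pon3 and Ces1f, the members whose groups did not overlap. Each runs from 250 bases before to 50 bases after the annotated start, 5′ to 3′ along the gene, and comes from RefSeq. All 10 members matched this table. In the first pair, capitals mark bases with no identical partner in a global alignment of both regions. The Ces1d region is GRCr8 chr19:30046244-30046543, plus strand, and the Ces1dl1 region is GRCr8 chr19:38444174-38444473, plus strand.
Ces1d: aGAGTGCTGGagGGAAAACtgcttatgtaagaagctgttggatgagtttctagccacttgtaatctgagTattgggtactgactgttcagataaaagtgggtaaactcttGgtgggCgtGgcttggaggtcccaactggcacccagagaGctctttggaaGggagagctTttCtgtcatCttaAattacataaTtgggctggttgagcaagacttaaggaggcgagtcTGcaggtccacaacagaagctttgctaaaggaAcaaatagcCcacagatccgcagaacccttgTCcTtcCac
Ces1dl1: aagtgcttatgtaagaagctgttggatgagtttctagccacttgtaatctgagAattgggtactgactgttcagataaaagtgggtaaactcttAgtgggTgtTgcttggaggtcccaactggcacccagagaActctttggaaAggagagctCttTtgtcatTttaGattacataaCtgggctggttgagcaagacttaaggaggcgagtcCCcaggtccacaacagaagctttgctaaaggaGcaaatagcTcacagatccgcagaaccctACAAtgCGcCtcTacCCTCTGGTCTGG
In this alignment 265 bases, or 88.3%, were identical. The Ces1d and Ces1f regions shared 177 bases, or 59.0%, close to the 58.3% found between Ces1d and the unrelated Pon3. In the second pair, capitals mark motif matches, and the regions are GRCr8 chr19:29969383-29969682, plus strand for Ces1f, and GRCr8 chr4:34350195-34350494, minus strand for Pon3.
Ces1f: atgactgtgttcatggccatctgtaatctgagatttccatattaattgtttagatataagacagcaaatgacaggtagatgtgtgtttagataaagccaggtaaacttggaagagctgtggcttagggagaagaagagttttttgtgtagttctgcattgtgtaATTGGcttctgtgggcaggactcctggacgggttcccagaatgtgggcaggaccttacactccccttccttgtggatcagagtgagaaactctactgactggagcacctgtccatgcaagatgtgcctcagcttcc
Pon3: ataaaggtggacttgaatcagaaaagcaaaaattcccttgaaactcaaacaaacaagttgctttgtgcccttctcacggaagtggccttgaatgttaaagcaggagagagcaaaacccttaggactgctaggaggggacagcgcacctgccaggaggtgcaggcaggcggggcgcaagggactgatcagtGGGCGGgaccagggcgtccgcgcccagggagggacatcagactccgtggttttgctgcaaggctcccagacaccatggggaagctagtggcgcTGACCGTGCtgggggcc
Motifs were searched on both strands. The CCAAT box (CCAAT) matched once in Ces1f, on the reverse strand from position -86. It matched at 2 places in Ces1d, from positions -180 and -58, and 37.5% of 33469 such regions hold it. The xenobiotic response element core (GCGTG) matched in Ces1d from position -135 and in none of the Ces1dl1 letters, and 29.7% of all regions hold it. In Pon3 a GC box (GGGCGG, 33.1% of all regions) lay at -60. An antioxidant response element core (TGACNNNGC, 12.1% of all regions) lay at 33, which is after the annotated start and not upstream of it. The letters TATAAA (14.2% of all regions), AGGTCA (16.2%) and GTTAAT (7.45%) were in none of the 10 member regions, and TGTTCT (20.7%) was in that of Bche alone. The direct repeat of AGGTCA was therefore in none of them either. Such matches describe letters and not binding.

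Each level is a log2 signal from which the 75th percentile of that animal's array was taken away, and each difference is tricresyl phosphate minus corn oil on this scale. Of the 8 measured members 7 were higher and 1 was lower with tricresyl phosphate, with a median difference of 0.16. Over all genes tested the median was -0.038, with 40.8% of genes higher and 59.2% lower. No member passed an adjusted limma p of 0.05, and 0.0% of all genes did. At an unadjusted p of 0.05 there were 2 of 8 members, Pon3 higher and Ces1f lower, against 5.49% of all genes, 1.63% higher and 3.86% lower. The groups did not overlap for the same 2 members, against 11.8% of all genes, 3.84% higher and 7.94% lower. With 8 members, such shares rest on single genes.

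**Figure D1:**
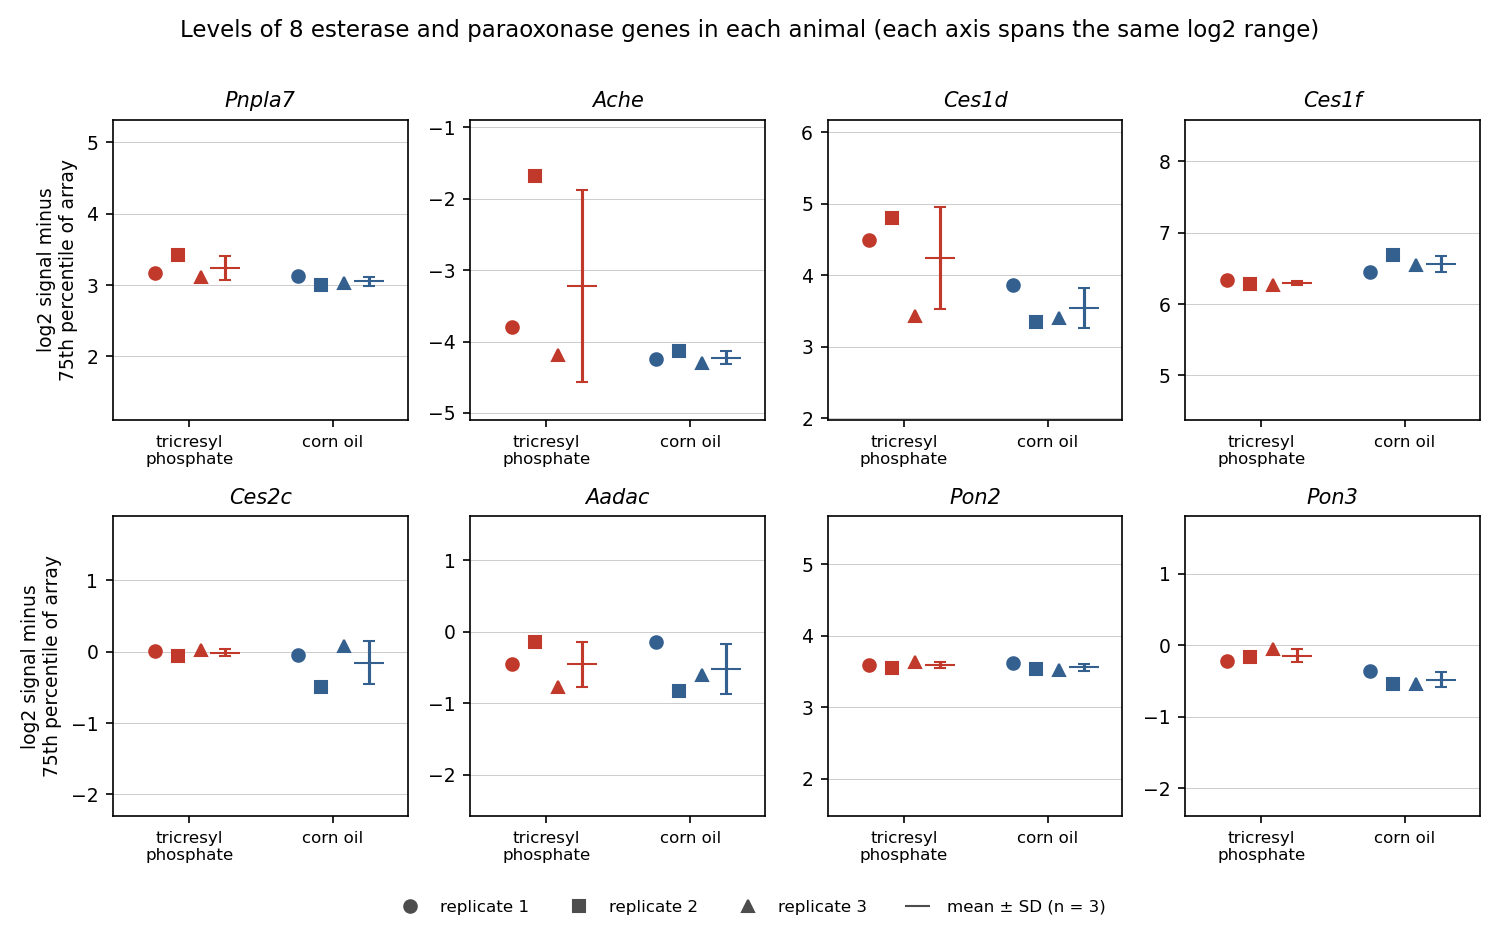
Level of each measured member (log2, scaled to the array's 75th percentile) in the 3 tricresyl phosphate animals (red) and the 3 corn oil animals (blue), with mean and SD beside the points. Pon3 and Ces1f separate the groups, Ces1d is high in tricresyl phosphate replicates 1 and 2, Ache is high in replicate 2, and Pon2, on its brightest probe, varies little.

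Pnpla7, a lysophospholipase related to neuropathy target esterase, was slightly higher with tricresyl phosphate. Its level was 3.17, 3.42 and 3.12 with tricresyl phosphate and 3.13, 3.00 and 3.02 with corn oil. Tricresyl phosphate replicate 2 stood above all others, and corn oil replicate 1 lay above tricresyl phosphate replicate 3, so the groups overlapped. The difference was 0.19 ± 0.11 (SE, n = 3 each; limma adjusted p 0.811), with a 95% interval from -0.085 to 0.46. A second probe gave 0.15 ± 0.11 (SE). Without tricresyl phosphate replicate 2 the difference was 0.093, and within the 5 arrays of slide 2 it was 0.23.

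Neuropathy target esterase deacylates phosphatidylcholine to glycerophosphocholine, which serves as an osmolyte in the renal medulla, and 17 glycerophosphocholine and osmolyte genes were examined beside its relative. Of 15 tested, 9 were higher and 6 lower, with a median of 0.032, and none passed the adjusted limma p. The groups did not overlap for 1 gene that was higher and 2 that were lower, against 3.84% and 7.94% of all genes. At an unadjusted p of 0.05 no gene was higher and 1 of 15 was lower, against 1.63% and 3.86% of all genes. The lower gene was Slc6a12, which encodes the betaine transporter. Its level was -2.22, -2.23 and -2.20 with tricresyl phosphate and -1.92, -2.01 and -2.01 with corn oil, a difference of -0.24 (limma adjusted p 0.811), while its other probe gave -0.037. Gpcpd1, a glycerophosphocholine phosphodiesterase, differed by 0.21 and Lpcat4, a lysophospholipid acyltransferase, by -0.27. Both had a limma adjusted p of 0.811.

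Ache, which ends cholinergic signalling by hydrolysing acetylcholine, was high in a single treated animal. Its processed signal was 73.8, 347 and 66.5 with tricresyl phosphate and 49.2, 65.4 and 51.7 with corn oil. On the log2 scale this was -3.80, -1.69 and -4.18 with tricresyl phosphate, against -4.25, -4.13 and -4.31 with corn oil. Tricresyl phosphate replicate 2 was 5.44-fold above the geometric mean of the other 5 animals, while replicate 3 lay inside the range of the corn oil animals. The SD was 1.34 with tricresyl phosphate and 0.089 with corn oil (n = 3 each). The difference of 1.01 ± 0.63 (SE, limma adjusted p 0.811) was 1.00 within the 5 arrays of slide 2, and 0.24 once tricresyl phosphate replicate 2 was left out. Ache varied more within groups than 98.0% of all genes.

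The same animal had the highest level of both genes of the acetylcholine synthesis and loading pathway that could be measured. Chat, the choline acetyltransferase gene, was at -5.12, -4.31 and -4.97 with tricresyl phosphate and -5.17, -4.92 and -5.04 with corn oil. Slc18a3, the vesicular acetylcholine transporter gene, was at -2.11, -0.64 and -2.20 with tricresyl phosphate and -2.12, -2.04 and -2.15 with corn oil. Chat was among the dimmest genes tested. Slc18a3 was 2.79-fold and Chat 1.67-fold above the geometric mean of the other 5 animals in tricresyl phosphate replicate 2. Hmox1, the stress-induced haem oxygenase, was 6.08-fold higher there. These 3 genes were picked with their values in view, and none passed the adjusted limma p between groups.

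The neural markers that could be measured did not stand apart in that animal. Of 12 listed nerve and Schwann cell markers 8 were tested, and 4 were well above background on none of the arrays. Whether nerve fibres contributed to the Ache, Chat and Slc18a3 levels was not tested. The summed level of 8 measured nerve and Schwann cell markers, in units of the array's 75th percentile, was 3.65, 3.43 and 3.19 with tricresyl phosphate and 3.01, 3.38 and 3.71 with corn oil. Th and Snap25 alone made up 2.39, 2.19 and 2.09 and then 1.84, 2.19 and 2.54 of these sums. The mean log2 level of the 8 markers, which weighs them equally, was -2.51, -2.60 and -2.70 with tricresyl phosphate. With corn oil that mean was -2.59, -2.75 and -2.54. Of the defining markers Dbh, the noradrenaline synthesis enzyme, was well above background on none of the arrays. Th, the first enzyme of catecholamine synthesis, was at 1.23, 1.09 and 1.03 with tricresyl phosphate and 0.84, 1.11 and 1.30 with corn oil. A dimmer second Th probe, well above background on 4 of the 6 arrays, was at -2.21, -5.61 and -5.54 with tricresyl phosphate and -5.83, -5.23 and -5.21 with corn oil, high in tricresyl phosphate replicate 1 alone. Snap25, a synaptic protein, was at -4.66, -4.10 and -4.31 with tricresyl phosphate and -4.12, -4.62 and -3.86 with corn oil. On both Th probes and for Snap25, tricresyl phosphate replicate 2 lay within the corn oil range.

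**Figure D2:**
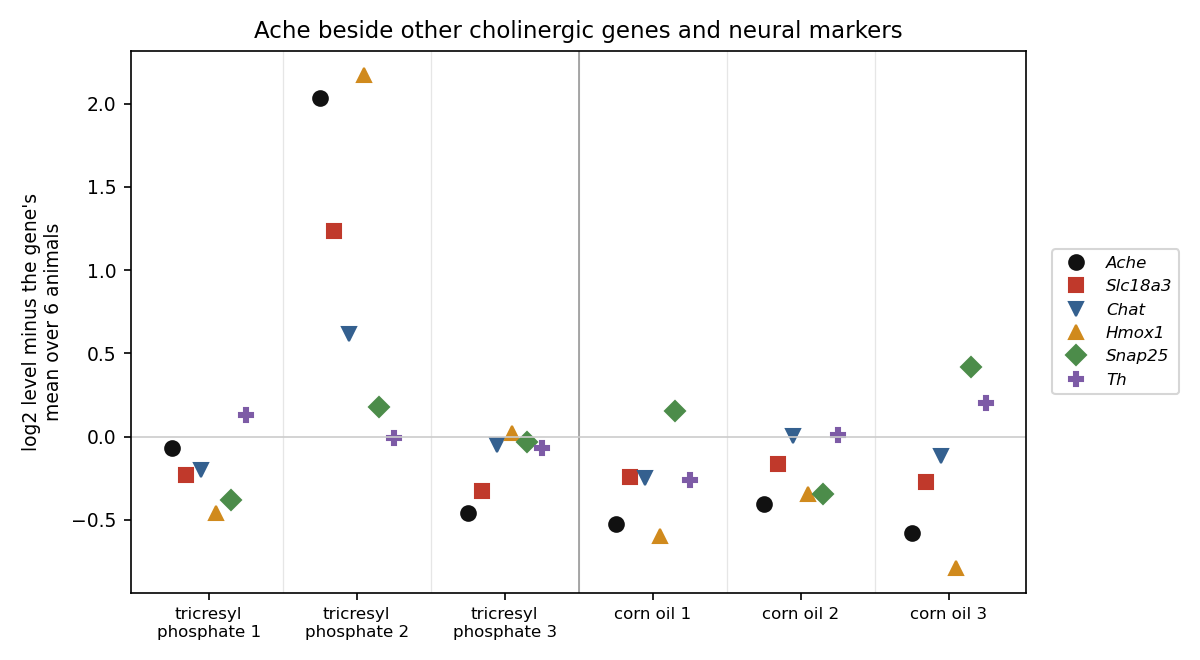
Log2 level of each gene minus its own mean over 6 animals, for each tricresyl phosphate animal (left) and each corn oil animal (right). Ache, Slc18a3, Chat and Hmox1 are highest in tricresyl phosphate replicate 2, where Th and Snap25 lie within the range of the other animals.

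Among 17 cholinergic genes, 9 were tested, 4 of them higher and 5 lower with tricresyl phosphate, with a median of -0.037. On each gene's brightest probe none passed the adjusted limma p or an unadjusted p of 0.05 in either direction. Prima1, the membrane anchor of acetylcholinesterase, was at 1.88, 2.38 and 2.85 with tricresyl phosphate and 1.81, 1.92 and 0.52 with corn oil. Its difference was 0.95 (limma adjusted p 0.811). The other Prima1 probe was at -0.51, -0.32 and -0.26 with tricresyl phosphate and -0.85, -0.72 and -0.68 with corn oil. On it every treated animal lay above every corn oil animal. The difference there was 0.39, with an unadjusted limma p of 0.0095 and an adjusted p of 0.816. The muscarinic receptor gene Chrm3 differed by -0.33 (limma adjusted p 0.811) and the nicotinic subunit gene Chrnb4 by -0.18 (limma adjusted p 0.814). The other Chrm3 probe gave -0.34, with an unadjusted limma p of 0.0479, an adjusted p of 0.816 and groups that overlapped. The choline transporter gene Slc5a7 and 3 nicotinic subunit genes, Chrna3, Chrna4 and Chrna5, were well above background on none of the arrays.

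Carboxylesterases hydrolyse esters and amides of drugs and lipids, and 3 members belong to this family. Ces1d, known as a triacylglycerol hydrolase, was high in 2 of the 3 treated animals. Its level was 4.49, 4.80 and 3.44 with tricresyl phosphate and 3.87, 3.35 and 3.40 with corn oil. Tricresyl phosphate replicates 1 and 2 lay above every corn oil animal, and replicate 3 lay within the corn oil range. The mean was 4.24 ± 0.71 with tricresyl phosphate and 3.54 ± 0.28 with corn oil (SD, n = 3 each). The difference of 0.70 ± 0.37 (SE), 1.63-fold, had a 95% interval from -0.19 to 1.59 and a limma adjusted p of 0.811. Its second probe followed the first closely, at 4.43, 4.72 and 3.41 with tricresyl phosphate and 3.89, 3.35 and 3.42 with corn oil, and differed by 0.63 ± 0.36 (SE).

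The size of the Ces1d difference depended on single treated animals. It was 1.11 without tricresyl phosphate replicate 3 (unadjusted limma p 0.00263, adjusted 0.675) and 0.42 without tricresyl phosphate replicate 2. Within the 5 arrays of slide 2 it was 0.87 ± 0.42 (SE). Ces1dl1, a gene on the same chromosome whose symbol marks it as Ces1d-like, was at -0.94, -0.61 and -1.65 with tricresyl phosphate and -1.50, -1.98 and -1.74 with corn oil. As for Ces1d, tricresyl phosphate replicates 1 and 2 were the highest of the 6 animals, and the difference was 0.67 (limma adjusted p 0.811). Ces1dl1 was picked with its values in view. Whether Ces1d RNA also binds the Ces1dl1 probe was not tested.

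Ces1f, a carboxylesterase whose gene is separated from Ces1d on chromosome 19 by Ces1e, differed in the other direction. Its level was 6.33, 6.28 and 6.27 with tricresyl phosphate and 6.45, 6.68 and 6.54 with corn oil. All 3 treated animals lay below all 3 corn oil animals. The difference was -0.27 ± 0.093 (SE), 0.832-fold, with an unadjusted limma p of 0.0285 and an adjusted p of 0.811. The second probe was at 5.81, 5.51 and 5.76 with tricresyl phosphate and 6.05, 6.21 and 6.17 with corn oil, a difference of -0.45 ± 0.11 (SE), with an unadjusted limma p of 0.00677 and adjusted 0.816. Within the 5 arrays of slide 2 the first probe differed by -0.32 ± 0.099 (SE). Ces1e itself was at 3.52, 3.68 and 2.92 with tricresyl phosphate and 3.83, 2.99 and 3.26 with corn oil, and its groups overlapped.

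The size of the Ces1f difference depended on the scaling. It was -0.29 under median scaling, with an unadjusted limma p of 0.0224. It was -0.15 under quantile normalization, with an unadjusted limma p of 0.195, and -0.15 under cyclic loess. Under both of these the Ces1f groups overlapped, while those of Pnpla7 and Pon2 did not. With the main scaling and 1 animal left out it lay between -0.32 and -0.20, larger in 3 of the 6 cases. Groups that are apart with all 6 animals stay apart when 1 is left out, so their separation there adds nothing. The unadjusted limma p was 0.023 without corn oil replicate 1 and between 0.0535 and 0.0904 without any other single animal. When all genes are ranked by level and cut into 5 equal classes, Ces1f belongs to the brightest class, where the median difference was -0.072 and 76.0% of genes were lower with tricresyl phosphate. Proximal tubule markers had a median difference of -0.13. Their mean level on each array lay between 5.63 and 5.95, within the range of that brightest class. Their part in the Ces1f difference was not tested.

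Ces2c, a carboxylesterase of the family whose human member prefers esters with a large alcohol group, did not separate the groups. Its level was 0.0073, -0.068 and 0.019 with tricresyl phosphate and -0.054, -0.49 and 0.080 with corn oil. Corn oil replicate 2 was lower than the other 5 animals. The difference was 0.14 ± 0.16 (SE, limma adjusted p 0.864), and it was -0.027 without corn oil replicate 2 and 0.19 within the 5 arrays of slide 2.

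Aadac, a microsomal deacetylase that hydrolyses arylacetamides and lipid esters, spread as widely within groups as between them. Its level was -0.45, -0.14 and -0.77 with tricresyl phosphate and -0.15, -0.82 and -0.60 with corn oil. Tricresyl phosphate replicate 2 and corn oil replicate 1 were the highest and nearly equal. The difference was 0.069 ± 0.23 (SE, limma adjusted p 0.958), with a 95% interval from -0.49 to 0.63. It was -0.087 without tricresyl phosphate replicate 2 and -0.082 without corn oil replicate 2. It was 0.23 without tricresyl phosphate replicate 3 and 0.26 ± 0.21 (SE) within the 5 arrays of slide 2.

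**Figure D3:**
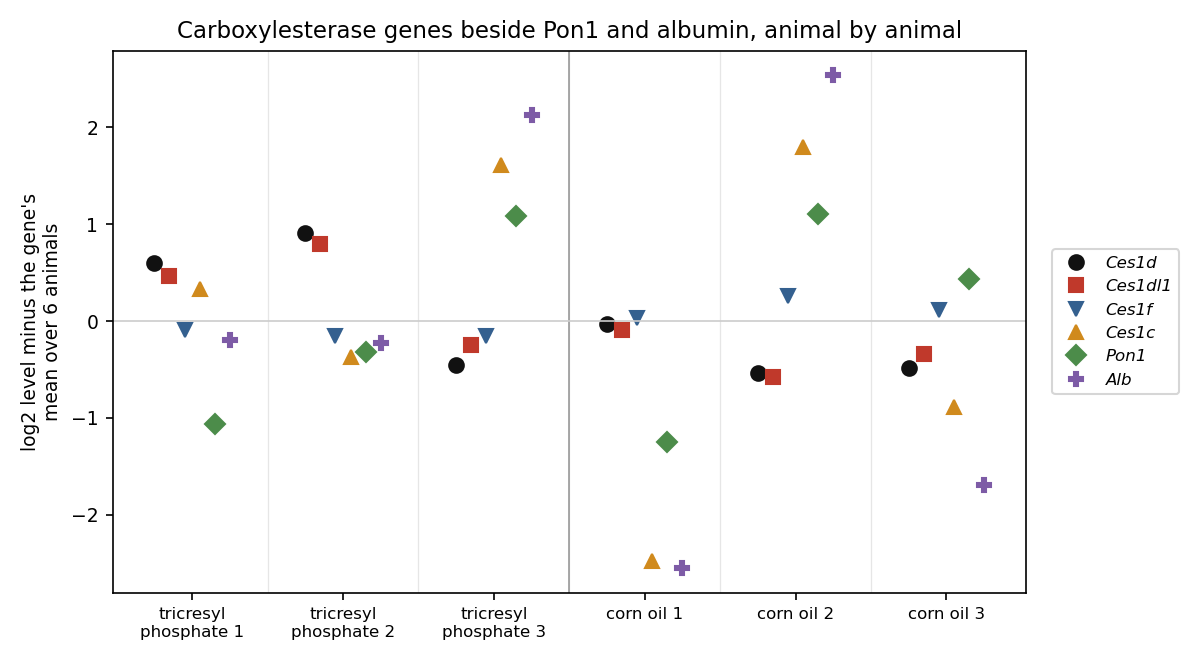
Log2 level of each gene minus its own mean over 6 animals, for each tricresyl phosphate animal (left) and each corn oil animal (right). Ces1d and Ces1dl1 are highest in tricresyl phosphate replicates 1 and 2, while Ces1c, Pon1 and Alb are highest in tricresyl phosphate replicate 3 and corn oil replicate 2.

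Several of these enzymes are abundant in liver, and hepatocyte markers differed widely between animals of both groups. Of 16 hepatocyte markers 14 were measured, 9 of them higher and 5 lower with tricresyl phosphate. Their summed level, in units of the array's 75th percentile, was 25.2, 23.2 and 28.6 with tricresyl phosphate and 22.6, 37.1 and 24.8 with corn oil. Albumin (Alb) was at -0.11, -0.15 and 2.21 with tricresyl phosphate and -2.47, 2.62 and -1.61 with corn oil. The other defining markers, Fgb and Apoh, were well above background on all 6 arrays. Apoh was at -3.17, -1.89 and -1.62 with tricresyl phosphate and -4.30, -1.05 and -3.22 with corn oil. Fgb was at 0.35, -0.70 and 0.17 with tricresyl phosphate and -0.46, 0.39 and -0.76 with corn oil. On both Fgb probes tricresyl phosphate replicate 1 lay above replicate 3, unlike albumin. The urea cycle and amino acid enzymes Cps1 and Tat were well above background on none of the arrays.

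Ces1c, a carboxylesterase secreted into plasma, was at -3.41, -4.12 and -2.14 with tricresyl phosphate and -6.22, -1.95 and -4.63 with corn oil, and was well above background on all arrays but 1 of the corn oil group. Pon1, the paraoxonase carried on plasma lipoproteins, was at -6.68, -5.93 and -4.52 with tricresyl phosphate and -6.86, -4.51 and -5.18 with corn oil, and was well above background on 1 tricresyl phosphate array and 2 corn oil arrays. For both genes, which were picked with their values in view, the 2 highest animals were those highest in albumin, tricresyl phosphate replicate 3 and corn oil replicate 2. Ces1d was low in these 2 animals, at 3.44 and 3.35. It was as low, at 3.40, in corn oil replicate 3, where albumin was at -1.61. Without the 2 animals highest in albumin the Ces1d difference was 1.01 ± 0.22 (SE, unadjusted limma p 0.00948, adjusted 0.848), from 2 animals in each group. The 2 animals were picked with their marker values in view, and that comparison leaves out the treated animal whose Ces1d level lay within the corn oil range. In that comparison Pon3 differed by 0.26 and Ces1f by -0.19, with unadjusted limma p-values of 0.108 and 0.162. These p-values also rest on 2 animals in each group and are not comparable with those from all 6 animals.

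Pon3, a lactonase of the paraoxonase family, was higher with tricresyl phosphate. Its level was -0.22, -0.17 and -0.048 with tricresyl phosphate and -0.36, -0.54 and -0.54 with corn oil. All 3 treated animals lay above all 3 corn oil animals. The mean was -0.15 ± 0.088 with tricresyl phosphate and -0.48 ± 0.10 with corn oil (SD, n = 3 each). The difference of 0.33 ± 0.098 (SE), 1.26-fold, had a 95% interval from 0.097 to 0.57, an unadjusted limma p of 0.0136 and an adjusted p of 0.811. It was 0.40 ± 0.10 (SE) within the 5 arrays of slide 2, and with any single animal left out the unadjusted limma p was at most 0.0467. Pon3 has a single probe, so no second probe bears on it.

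Pon2, an intracellular paraoxonase whose gene is the neighbour of Pon3 on chromosome 4, varied little on its brightest probe. That probe was at 3.59, 3.54 and 3.63 with tricresyl phosphate and 3.62, 3.54 and 3.51 with corn oil. The groups overlapped, and only 1.10% of all genes had an equal or smaller range over the 6 animals. The difference was 0.032 ± 0.081 (SE, limma adjusted p 0.943), with a 95% interval from -0.17 to 0.23, and was 0.062 within the 5 arrays of slide 2. A second probe was at 1.76, 1.79 and 1.72 with tricresyl phosphate and 1.69, 1.66 and 1.58 with corn oil, a difference of 0.11 ± 0.080 (SE, limma adjusted p 0.816). On this probe all 3 treated animals lay above all 3 corn oil animals. The remaining probe was at 1.52, 1.61 and 1.81 with tricresyl phosphate and 1.52, 1.40 and 1.43 with corn oil, a difference of 0.19 ± 0.11 (SE, limma adjusted p 0.816), with groups that overlapped. With the mean of the 3 probes the difference was 0.11 ± 0.080 (SE, limma adjusted p 0.826), and the groups did not overlap.

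**Figure D4:**
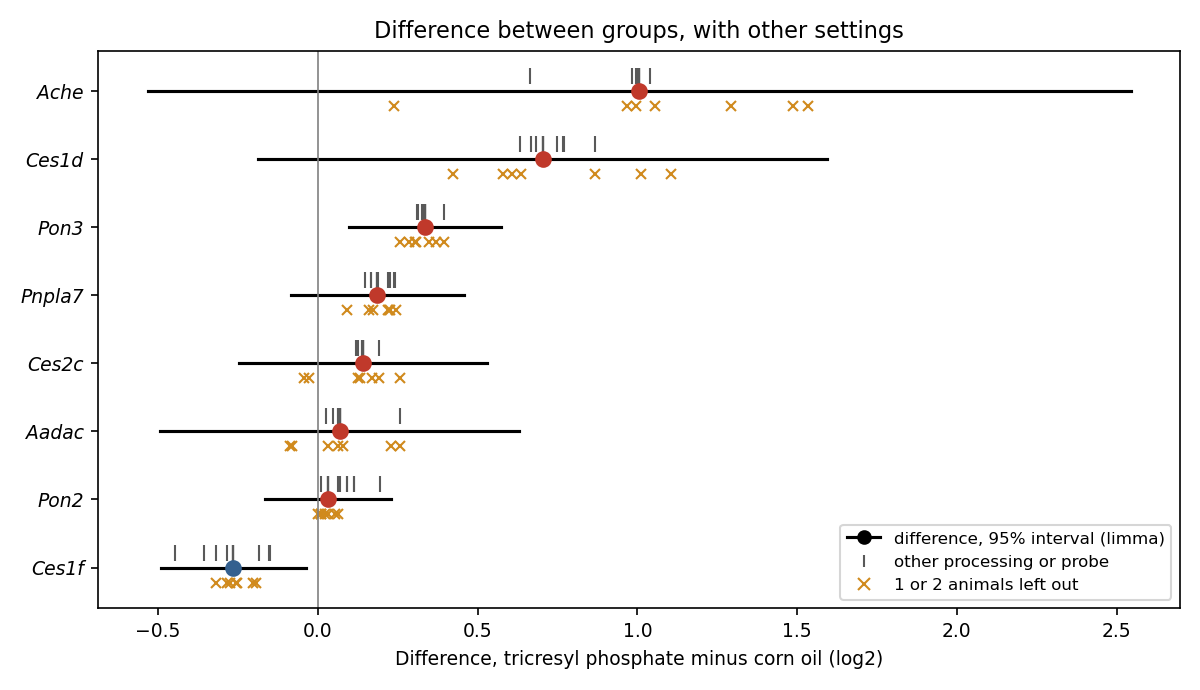
Difference of each measured member (tricresyl phosphate minus corn oil, log2) with its 95% interval from limma, beside the values under other processing or from other probes (ticks) and with 1 or 2 animals left out (crosses). Intervals of Pon3 and Ces1f do not reach 0, and the values of Ache and Ces1d spread most when animals are left out.

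The remaining esterases and serine hydrolases were lower with tricresyl phosphate in a share close to that of all genes. Of 43 such genes 35 had a matched probe and 30 were tested, 11 of them higher and 19 lower, against 59.2% of all genes lower, with a median difference of -0.082 against -0.038 over all genes. None passed the adjusted limma p. At an unadjusted p of 0.05 no gene was higher and 3 of 30 were lower, against 1.63% and 3.86% of all genes. The groups did not overlap for 1 gene that was higher and 3 that were lower, against 3.84% and 7.94% of all genes. Lyplal1, a lysophospholipase-like hydrolase, was at 4.92, 4.91 and 4.65 with tricresyl phosphate and 5.38, 5.21 and 5.15 with corn oil, a difference of -0.42 (limma adjusted p 0.811).

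Esd, the esterase D gene whose product hydrolyses S-formylglutathione, differed by -0.24. Mgll, the monoacylglycerol lipase that degrades the endocannabinoid 2-arachidonoylglycerol and is a target of organophosphates, was at 5.08, 5.19 and 4.99 with tricresyl phosphate and 5.27, 5.36 and 5.34 with corn oil. Its difference was also -0.24, and both had a limma adjusted p of 0.811. In Lyplal1, Esd and Mgll, picked for the smallest p of their list, every treated animal lay below every corn oil animal. All 3 lie in the brightest of the 5 classes, where 76.0% of genes were lower.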

How the data were processed

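RNA from the renal cortex of 6 animals was measured on 6 single-colour Agilent arrays. The authors quantified the scans with Agilent Feature Extraction 10.7 (10.7.1.1 and build rn4 per the file headers), and the deposited processed signal is a linear intensity after background subtraction and spatial detrending. Flags of 0 or 1 mark spots above background, saturated spots and outliers. The authors' value table holds the same intensity divided by 1 number per array, near its 75th percentile; over brighter probes the coefficient of variation of the ratio was at most 0.0092%, and its column medians lay between 0.109 and 0.115. Which software scaled it is not stated per the labels.

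Probes were named by accession through RefSeq (GRCr8), which gave 28206 of 61537 probes 1 symbol, 33331 none and 0 several. No spot was saturated (0), and 77 outlier spots were set missing. Probes well above background on at least 3 arrays were kept (43099), each gene was represented by its kept probe with the highest mean, and 31637 genes were fitted with limma 3.58.1 in R 4.3.3 (lmFit, eBayes, two-sided, Benjamini-Hochberg), after a test on simulated data. The number of arrays limits precision. The rule for named genes was the members, the 3 genes of each related list with the smallest p, and genes most like Pnpla6, which has no matched probe. Members and lists were chosen with earlier results of these data known. Alternatives were other scalings, normexp with an offset of 50, other filters and probe rules, another variance model, blocks and arrays left out. Replicate numbers were not used as pairs in the main fit. Deviations of same-numbered animals correlated at 0.086, -0.051 and -0.044, and those of differently numbered animals between -0.078 and 0.12. Such weak correlations cannot settle whether animals were paired.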

Additional observations from a re-analysis of the deposited data

How the results depend on the processing

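Of 149 values of the members' differences under other settings 145 kept their direction. The exceptions were Aadac, which ranged from -0.087 to 0.26 when 1 animal was left out (-0.082 without corn oil replicate 2), and Ces2c, which ranged from -0.027 to 0.26 and was -0.043 without both animals highest in hepatocyte markers. No member passed the adjusted p under any setting. Over all genes 2 passed with normexp followed by quantile normalization and with a trended robust variance model, and 0 to 1 with 1 animal left out. At an unadjusted p of 0.05 the 2 members became 1, Pon3, under quantile normalization, cyclic loess and normexp, and with the replicate block, and 1, Ces1d, without the 2 animals highest in hepatocyte markers. With 1 animal left out the number was 1 to 2. Members whose groups did not overlap were Ces1f and Pon3 as reported, but numbered 3 under quantile normalization and cyclic loess (Pnpla7, Pon2 and Pon3) and with the mean of a gene's probes (Ces1f, Pon2 and Pon3), and were Pnpla7 and Pon3 under normexp. They numbered 2 to 5 with 1 animal left out, where 18.8% to 27.6% of all genes did not overlap, and 5 without both animals, where 33.8% did not. Lower members numbered 2 with no filter on dim probes, which adds Bche, 2 without both animals, and 1 to 3 with 1 animal left out. The replicate block changed no other count. Causes of these shifts were not tested, apart from the smaller number of animals, which makes separation of groups more frequent. Signals near background limit Ache, Bche, Chat, Ces1c and Pon1.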

Other observations

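Tricresyl phosphate replicate 2 was the highest of the 6 animals for 4 of the 8 measured members, Pnpla7, Ache, Ces1d and Aadac, while 13.4% of all genes were highest in that animal. Corn oil replicate 1, alone on its slide and in its scan, was highest for 0 of the 8 members and for 26.4% of all genes.

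Fabp4, a fatty acid binding protein of adipocytes and endothelium, was at -3.43, -2.14 and -3.41 with tricresyl phosphate and -4.38, -4.34 and -5.46 with corn oil, a difference of 1.73 (limma adjusted p 0.811). Of the 4 tested adipocyte markers 3 were higher and 1 was lower, with differences from -0.51 to 1.73 and a median of 0.16. Fabp4 alone had groups that did not overlap, as did 3.84% of all genes in the higher direction. Adipoq, the adiponectin gene, differed by 0.20, and Lep, the leptin gene, was well above background on none of the arrays. Blood cell and platelet markers were lower in 6 of 7 genes, with a median difference of -0.31. None passed the adjusted limma p, and 3 of 7 were lower at an unadjusted p of 0.05, against 3.86% of all genes. The same number had groups that did not overlap, all lower, against 7.94% of all genes. Their summed level, in units of the array's 75th percentile, was 544, 437 and 432 with tricresyl phosphate and 603, 538 and 569 with corn oil, so that the sums overlapped. These values stand beside the member results as measured, and their part in them was not tested.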
